A study of Mus musculus with 4 samples.

Results

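The vascular endothelial growth factor (VEGF) and angiopoietin genes were read from 4 two-colour arrays of cultured mouse microvascular smooth muscle cells. Their 10 members were the ligands Vegfa, Vegfb and Vegfc, the VEGF receptors Flt1 and Kdr, the coreceptor Nrp1, the angiopoietins Angpt1 and Angpt2, their receptor Tek, and the angiopoietin-like gene Angptl4. They were found as the non-control probes whose transcript accession carried 1 of these symbols in RefSeq. That gave 17 probes on 35 spots, among 41174 probes and 18217 named genes on the array. Of the 17 probes, 16 were bright enough to be tested, and they covered all 10 genes. The other probe, 1 of a pair for Angpt1, was too dim.

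The cells came from male C57BL6 mice with a knockout of Rap1a, a small GTPase of the Ras family, so both conditions lacked the gene according to the labels. They were given either an empty shuttle vector or a shuttle vector named RapCA, which the labels do not spell out, and the series title sets knockout against rescue. Growth was in medium with 10% serum. The virus was added at plating, overnight and without serum, and was followed by 48 h of recovery in 0.5% serum before total RNA was taken. On each of the 4 arrays, vector RNA carried Cy5 and RapCA RNA carried Cy3. The dyes were never exchanged and all arrays lay on 1 slide, so dye and condition cannot be told apart, and the slide could not be examined as a batch. In the labels these are biological replicates, with no mention of separate cultures or animals, so the p-values measure only the spread between these samples, which may be technical.

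VEGF ligands act through receptor tyrosine kinases on the cell surface. Kdr passes on most of the growth and permeability signal, Flt1 binds VEGF tightly but signals weakly and also exists as a soluble decoy, and neuropilins hold the ligand next to the kinase. Angiopoietins act through Tek: Angpt1, made mainly by mural cells, activates it and steadies vessels, while Angpt2 often opposes Angpt1. Endothelial cells are the best known site of the receptors, and smooth muscle cells and pericytes are known sources of the ligands.

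Each ratio below is the log2 of RapCA-labelled over vector-labelled signal, after background correction and intensity-dependent (loess) scaling of each array. The mean over arrays was tested against 0 with limma over all 23497 probes that were well above background, and a probe counted as called where its adjusted p (Benjamini-Hochberg over those probes) was below 0.05. Levels are log2 intensities of each channel, scaled further between arrays (Aquantile) after loess, and the level of 1 probe is set only against its own level in the other channel. Because the RNA came from whole cultures, a smaller share of expressing cells and less RNA per cell cannot be told apart.

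Some facts of the whole set touch every value. Replicate 1 was least like the rest: over 23485 probes its ratios gave correlations of 0.69 to 0.78 with replicates 2 to 4, which gave 0.93 to 0.98 among themselves. In its Cy5 channel 51.3% of probes were well above background, against 60.1% to 61.9% on the other arrays. The probe for Rap1a had log2 ratios of -0.46, -1.02, -1.31 and -1.47 on replicates 1 to 4, a mean of -1.06 ± 0.44 (SD, n = 4; limma adjusted p = 0.00204). Its level was 12.74 in the channel labelled vector and 11.68 in the channel labelled RapCA. Rap1a was therefore measured in both channels and was lower where the label names RapCA, which goes against a rescue label if the probe reads the vector's transcript. Whether the probe lies in the deleted part or in the vector's insert is not given in the sources used here, so channels are named by their labels only.

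The genes moved in opposite directions. Nrp1, Flt1 and Tek rose in the channel labelled RapCA, at mean log2 ratios of 1.65, 1.41 and 1.16 for their brightest probes. Angptl4 and Angpt2 fell, at -2.81 and -1.57. Kdr fell by 0.75 on the log2 scale, so the pair of VEGF receptors moved in opposite directions. The ligands Vegfb and Vegfc fell by 0.50 and 0.38 on the same scale, and the probes for Vegfa disagreed with each other.

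Among the 16 tested probes 5 were called higher, 6 were called lower and 5 were not called. Tek, among the higher, was kept for testing through the RapCA channel alone. Of all tested probes 49.6% were called, 26.4% higher and 23.2% lower, so calls were common on the whole array. With 1 probe per gene, the brightest, 3 of the 10 genes were higher, 5 were lower and 2 were not called. Over all 12388 named genes tested, 53.9% were called, 28.9% higher and 24.9% lower. A called difference of 2-fold or more was found for 5 of the 16 probes (31.3%), against 3091 of 23497 probes (13.2%) on the array. Tek was 1 of these 5. The median absolute log2 ratio was 0.62 over the 16 probes and 0.35 over all probes, and the median ratios were -0.06 and 0.01. The members were chosen with earlier results of these data known, so these shares and medians only describe them. Of all called probes 53.3% were higher. With each array centred on its median in place of loess, the share was 40.1% and the median of all ratios moved by -0.16. Single probes moved further than that, among them Vegfb A_51_P458168, from -0.50 to -0.98.

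**Figure D1:**
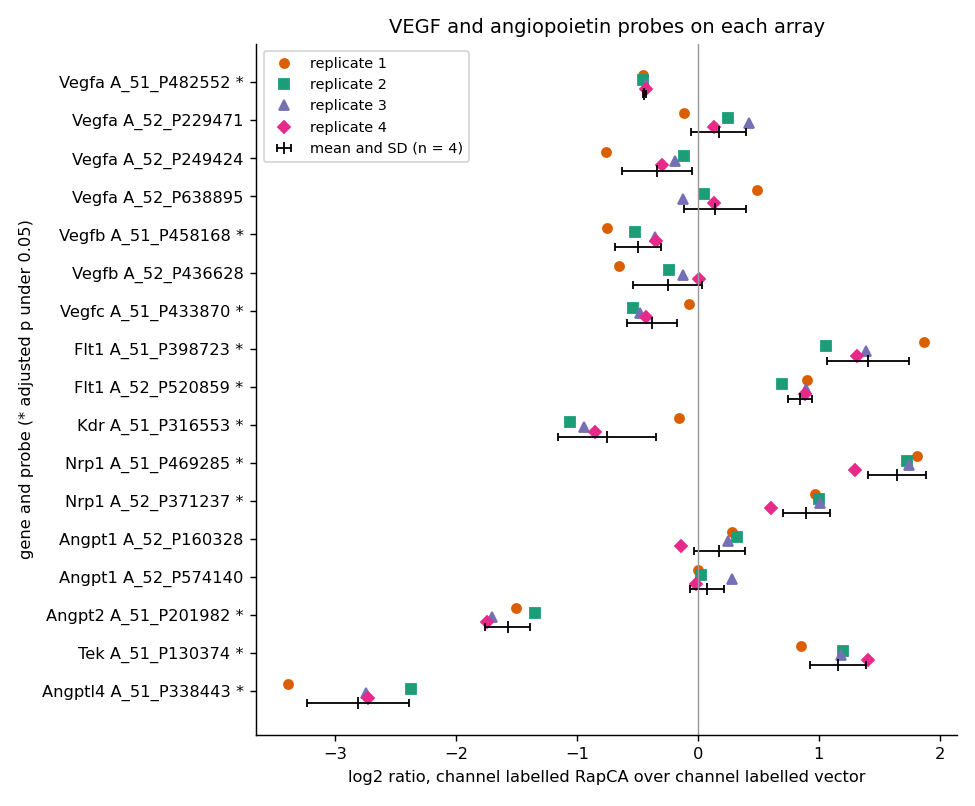
Log2 of RapCA-labelled over vector-labelled signal for each of the 17 probes (rows) on replicates 1 to 4 (coloured points), with the mean and SD over 4 arrays (black). Asterisks mark an adjusted p under 0.05. Flt1, Nrp1 and Tek lie to the right of 0 on all 4 arrays and Angpt2 and Angptl4 to the left, while replicate 1 of Kdr lies near 0.

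Vegfa, the main VEGF ligand, was read by 4 probes that did not move together. Probe A_51_P482552, printed on 10 spots per array, had log2 ratios of -0.46, -0.46, -0.43 and -0.43, a mean of -0.44 ± 0.016 (SD, n = 4; limma adjusted p = 0.00651). Its log2 level was 11.38, 11.17, 11.19 and 11.18 in the channel labelled vector and 10.93, 10.72, 10.76 and 10.75 in the channel labelled RapCA. All 4 vector values lay above all 4 RapCA values, and the array that was highest in vector was also highest in RapCA. Probe A_52_P249424 was lower on every array, at -0.76, -0.12, -0.19 and -0.30, and was not called (mean -0.34 ± 0.29, SD, n = 4; limma adjusted p = 0.0676). It was called with median centring (-0.54, adjusted p = 0.0326) and with array quality weights (-0.18, adjusted p = 0.0190), and its adjusted p reached 0.137. The remaining Vegfa probes had mean ratios of the other sign. They were 0.17 ± 0.23 for A_52_P229471 (-0.12, 0.25, 0.42 and 0.14; limma adjusted p = 0.264) and 0.14 ± 0.26 for A_52_P638895, the brightest (0.49, 0.05, -0.12 and 0.14; limma adjusted p = 0.388). For both the channels overlapped. Replicate 1 had the lowest ratio of the first and the highest of the second. Averaged over the 4 probes, Vegfa had a ratio of -0.12 (limma adjusted p = 0.312), so a change of Vegfa as a gene was not called. The call of A_51_P482552 was lost without replicate 2 (adjusted p = 0.0569), without replicate 3 (0.0528) and with median centring (0.0687), and its adjusted p ranged from 1.21e-05 to 0.0687 over 16 alternatives. A_52_P229471 was called without replicate 1 (0.27, adjusted p = 0.0266), and its adjusted p ranged from 0.00043 to 0.720.

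Vegfb, a ligand of Flt1, fell on its brighter probe A_51_P458168, with log2 ratios of -0.75, -0.52, -0.36 and -0.35 and a mean of -0.50 ± 0.19 (SD, n = 4; limma adjusted p = 0.00862). The log2 level went from 14.79, 14.28, 14.36 and 14.41 to 14.04, 13.76, 14.00 and 14.06, without overlap between the channels. Its other probe, A_52_P436628, had ratios of -0.65, -0.24, -0.12 and 0.01 and was not called (-0.25 ± 0.29; limma adjusted p = 0.154). On both probes replicate 1 had the lowest ratio. The mean of the probes was -0.37 (limma adjusted p = 0.0321). Without replicate 2 the call of the brighter probe was lost (adjusted p = 0.0562), the highest of a range that began at 4.1e-05. With median centring its ratio was -0.98, and the other probe was called (-0.50, adjusted p = 0.0373), as it was with array quality weights (-0.16, adjusted p = 0.0423); its adjusted p reached 0.323.

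Vegfc, the ligand best known for lymphatic vessel growth, had log2 ratios of -0.08, -0.54, -0.48 and -0.43, a mean of -0.38 ± 0.21 (SD, n = 4; limma adjusted p = 0.0284). Its level fell from 11.51, 11.84, 11.92 and 11.93 to 11.44, 11.31, 11.45 and 11.51. The channels came within 0.0086 of each other without overlapping, since replicate 1 of the vector channel was as low as the highest RapCA value. No other called probe of these genes lost its call as often, under 4 of 16 alternatives. It was lost without replicate 2 (adjusted p = 0.162), without replicate 3 (0.147), without replicate 4 (0.0870) and with median centring (0.154), and the range over alternatives began at 6.31e-06.

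**Figure D2:**
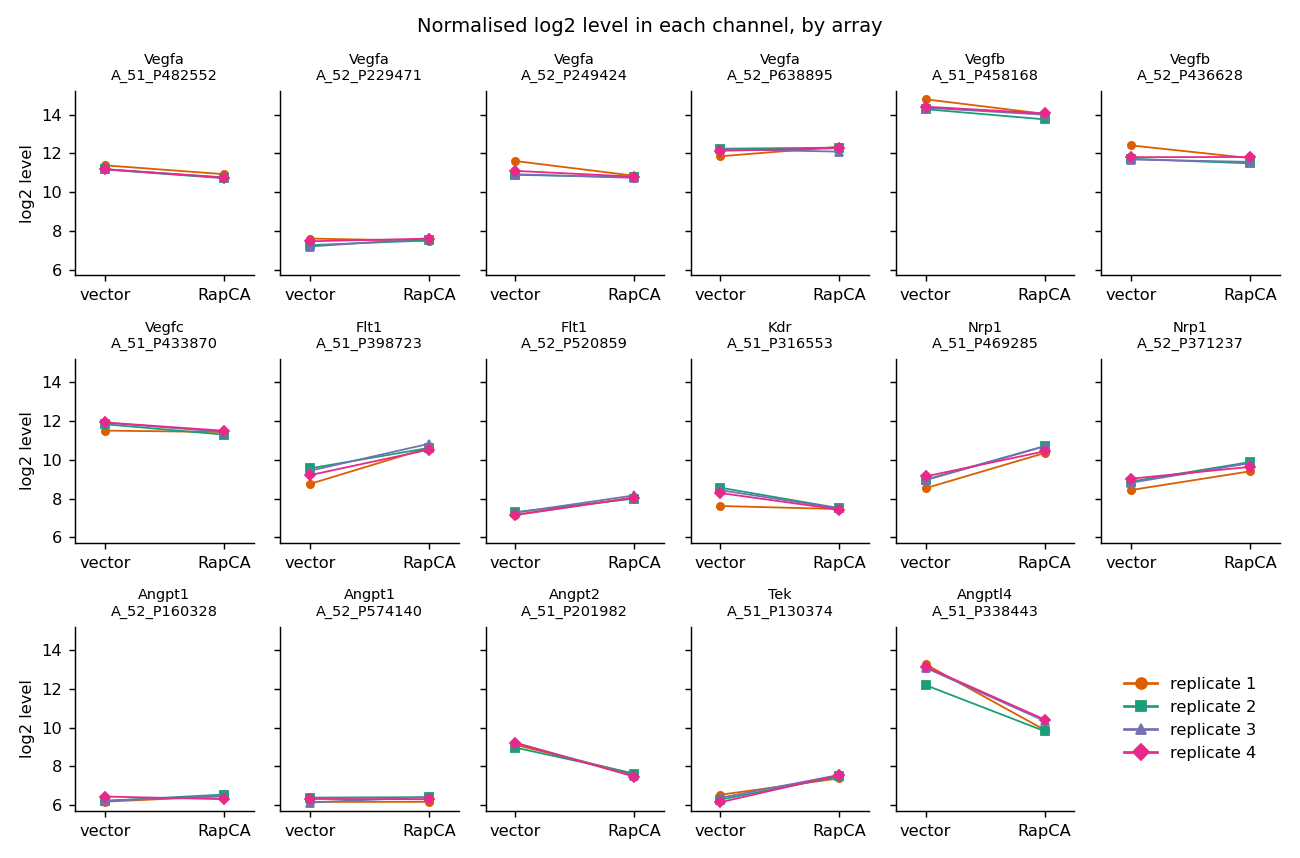
Normalised log2 level of each probe (panels) in the channel labelled vector (left) and labelled RapCA (right), with 1 line per array. The lines fall on all 4 arrays for Angpt2 and Angptl4, rise for Flt1, Nrp1 and Tek, and for Kdr replicate 1 starts near 7.62 while the other arrays start between 8.29 and 8.56.

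The receptor genes are shown with the 250 bases before their annotated start, because Flt1, Nrp1 and Tek rose and Kdr fell in the same cells. The sequences are from RefSeq on GRCm38.p6, on the strand of the gene. Capitals mark the hypoxia-response core GCGTG and the Sp1-type box GGGCGG on either strand, so CACGC and CCGCCC are the same motifs read backwards. The stretches are chr5:147726012-147726261 on the minus strand for Flt1, chr5:75978456-75978705 on the minus strand for Kdr, chr8:128358823-128359072 on the plus strand for Nrp1 and chr4:94739039-94739288 on the plus strand for Tek.
Flt1: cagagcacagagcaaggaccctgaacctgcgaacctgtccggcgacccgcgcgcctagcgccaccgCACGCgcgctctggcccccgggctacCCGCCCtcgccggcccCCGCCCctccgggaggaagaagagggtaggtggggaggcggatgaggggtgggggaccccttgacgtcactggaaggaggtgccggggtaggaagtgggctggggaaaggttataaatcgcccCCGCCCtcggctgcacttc
Kdr: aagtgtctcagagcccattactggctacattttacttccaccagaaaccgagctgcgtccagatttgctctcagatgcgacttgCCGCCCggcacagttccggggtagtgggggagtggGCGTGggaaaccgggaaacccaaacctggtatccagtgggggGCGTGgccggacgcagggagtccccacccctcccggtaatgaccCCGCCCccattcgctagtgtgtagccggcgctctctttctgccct
Nrp1: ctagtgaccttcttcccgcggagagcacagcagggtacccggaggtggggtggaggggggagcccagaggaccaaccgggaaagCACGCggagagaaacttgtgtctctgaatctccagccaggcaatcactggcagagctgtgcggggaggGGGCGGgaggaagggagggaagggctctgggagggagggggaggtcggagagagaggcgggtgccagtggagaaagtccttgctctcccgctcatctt
Tek: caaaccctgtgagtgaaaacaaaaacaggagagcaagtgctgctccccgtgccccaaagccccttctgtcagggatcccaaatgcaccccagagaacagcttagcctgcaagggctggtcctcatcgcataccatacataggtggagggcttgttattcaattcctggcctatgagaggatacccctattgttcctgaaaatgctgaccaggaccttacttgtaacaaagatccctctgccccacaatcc

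Counted from the start site, with the first base of a match as its position, GCGTG lay at -184 in Flt1, at -131 and -89 in Kdr and at -166 in Nrp1. GGGCGG lay at -158, -142 and -19 in Flt1, at -166 and -45 in Kdr and at -98 in Nrp1. The Tek stretch held neither motif and had the lowest share of G and C, 51.2%, against 70.4% for Flt1, 61.6% for Kdr and 64.4% for Nrp1. Over 32851 mouse promoter stretches of the same length, 28.2% held GCGTG and 32.7% held GGGCGG. The motifs were therefore found in the receptor that fell as well as in 2 of the genes that rose. The other hypoxia core, ACGTG (16.6% of all stretches), was in none of the 4 receptor stretches. It was found once among the stretches of the ligands, at -211 before 1 of the 2 listed starts of Vegfa, beside GCGTG at -218. That start lies downstream of the other on the strand of the gene, so its stretch lies within the gene. The letters around both cores there can be read as codons of the ligand, so the cores are not shown to belong to a promoter. The stretch before the upstream start held neither core. Vegfb held GCGTG at -237 and -81, and Vegfc held none. The AP-1 motif TGANTCA (6.7% of all stretches), the TEAD motif GGAATG (12.6%) and the ETS motif CGGAAG (13.6%), each searched on both strands, were in none of the 8 stretches of these 7 genes. These matches describe letters in a window and say nothing of binding.

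Flt1 rose on both of its probes. Probe A_51_P398723 had log2 ratios of 1.87, 1.06, 1.39 and 1.32, a mean of 1.41 ± 0.34 (SD, n = 4), or 2.65-fold (limma adjusted p = 0.00029). The level in the channel labelled vector was 8.76, 9.56, 9.44 and 9.21, and in the channel labelled RapCA 10.63, 10.62, 10.83 and 10.53. The RapCA values lay within 0.30 of each other and the vector values spread over 0.80, with replicate 1 the lowest, so the highest ratio belonged to the array with the lowest vector level. Probe A_52_P520859 gave 0.90, 0.70, 0.90 and 0.89, a mean of 0.85 ± 0.098 (1.80-fold; limma adjusted p = 0.000482), again without overlap. Both probes stayed called under all 16 alternatives, several of which leave the ratio itself unchanged, with adjusted p up to 0.0428 and 0.0326.

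Kdr, the main signalling receptor for VEGF, was read by 1 probe on 10 spots per array. Its log2 ratios were -0.16, -1.06, -0.94 and -0.85, a mean of -0.75 ± 0.40 (SD, n = 4), or 1.68-fold lower in the channel labelled RapCA (limma adjusted p = 0.00705). The level was 7.62, 8.56, 8.44 and 8.29 in the channel labelled vector and 7.46, 7.51, 7.49 and 7.44 in the channel labelled RapCA. The channels did not overlap, but replicate 1 of the vector channel exceeded the highest RapCA value by 0.11. The spots show where replicate 1 differed. Its 10 spots had Cy5 intensities over background of 55 to 115, against 267.5 to 610.5 over the spots of the other arrays, while Cy3 intensities ran from 64.5 to 145 on all 4 arrays. The median Cy5 intensity of all spots was also lower on replicate 1, 37 against 75.5 to 83.5, and its part in the Kdr value was not tested. Replicate 1 was thus low in the vector channel and ordinary in the RapCA channel. Within an array the spot ratios had an SD of 0.046 to 0.11. The array means had an SD of 0.40, 5.35 times the root mean square of the SDs within arrays. The call was lost with median centring (-0.91, adjusted p = 0.0730) and held with each array left out, and the lowest adjusted p was 1.44e-08.

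The Vegfa probe printed 10 times gave the opposite picture. Its spots had an SD of 0.038 to 0.068 within arrays. Its array means had an SD of 0.016, 0.31 times the root mean square of those within. Among 150 tested probes printed 10 times the median SD was 0.058 within arrays and 0.25 between arrays. Kdr therefore varied more between arrays than is usual here, and this Vegfa probe varied less.

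**Figure D3:**
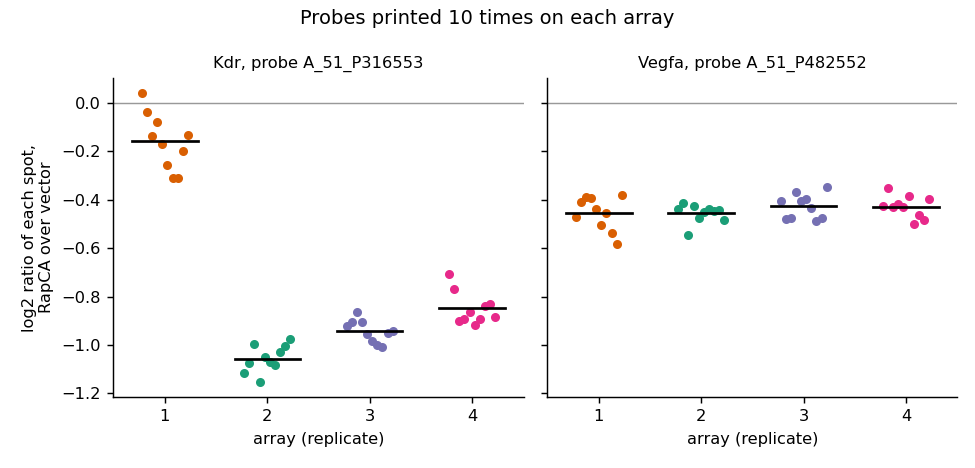
Log2 ratio of each of the 10 spots per array for Kdr (left) and for the Vegfa probe printed 10 times (right), with the array mean as a line. Kdr spots of replicate 1 lie between -0.31 and 0.04 and those of the other arrays between -1.15 and -0.71, while the Vegfa spots share 1 range on all 4 arrays.

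Nrp1, the coreceptor that VEGF shares with class 3 semaphorins, rose on both of its probes. Probe A_51_P469285 had log2 ratios of 1.81, 1.73, 1.74 and 1.30, a mean of 1.65 ± 0.24 (SD, n = 4), or 3.13-fold (limma adjusted p = 7.73e-05). Its level was 8.54, 8.98, 8.96 and 9.15 in the channel labelled vector and 10.35, 10.71, 10.70 and 10.44 in the channel labelled RapCA. The channels were more than 1 log2 unit apart on every array, and replicate 4 had the smallest difference. Probe A_52_P371237 gave 0.97, 1.00, 1.01 and 0.61, a mean of 0.90 ± 0.19 (1.86-fold; limma adjusted p = 0.000675), with replicate 4 again the lowest. The second probe was not called with median centring (0.75, adjusted p = 0.0697), the highest of a range that began at 8.79e-09. The first was called under all 16 alternatives.

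Angpt2, the angiopoietin that often opposes Tek activation, fell on every array. Its log2 ratios were -1.50, -1.34, -1.71 and -1.74, a mean of -1.57 ± 0.19 (SD, n = 4), or 2.98-fold lower (limma adjusted p = 6.8e-05). Its level was 9.11, 8.97, 9.22 and 9.22 in the channel labelled vector and 7.61, 7.63, 7.52 and 7.47 in the channel labelled RapCA. Both channels were tight, with 1.34 log2 units between the lowest vector value and the highest RapCA value, and no array stood apart. The fall was called under all 16 alternatives, at ratios from -2.08 to -1.52.

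Angpt1, the activating ligand of Tek, was near the background of the array. Probe A_52_P160328 was well above background in the vector channel on 3 of 4 arrays and in the RapCA channel on all 4. It had ratios of 0.28, 0.32, 0.25 and -0.14 and was not called (0.18 ± 0.21; limma adjusted p = 0.239). The levels, 6.18 to 6.44 in vector and 6.31 to 6.55 in RapCA, overlapped. Without replicate 4, the array of opposite sign, the ratio was 0.28 (adjusted p = 0.0913). With array quality weights it was 0.24 (adjusted p = 0.00541), and the highest adjusted p over 15 alternatives was 0.584. The other probe was above background on 1 array in vector and on 2 in RapCA, and no difference can be read from it.

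Tek, the receptor of the angiopoietins, rose. Its log2 ratios were 0.85, 1.20, 1.18 and 1.40, a mean of 1.16 ± 0.23 (SD, n = 4), or 2.23-fold (limma adjusted p = 0.000294). The level was 6.54, 6.29, 6.38 and 6.15 in the channel labelled vector and 7.39, 7.49, 7.56 and 7.56 in the channel labelled RapCA, so every RapCA value lay above every vector value. Tek was well above background on 2 of 4 arrays in vector and on all 4 in RapCA. It was therefore kept for testing through the RapCA channel alone, the channel in which it was higher. With its vector detection in both channels it would not have been tested. The size of its change rested on how background was handled. The mean ratio was 1.76 with a smaller normexp offset of 10 and 3.02 with the scanner software's own ratios, and it stayed called under all 15 alternatives that could be run. For the angiopoietins and their receptor, then, the receptor rose, the opposing ligand fell and the activating ligand was not called.

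Angptl4, a secreted inhibitor of lipoprotein lipase that does not act through Tek, fell further than any other member. Its log2 ratios were -3.39, -2.37, -2.74 and -2.73, a mean of -2.81 ± 0.42 (SD, n = 4), or 7.0-fold lower (limma adjusted p = 3.96e-05). The level was 13.27, 12.20, 13.09 and 13.15 in the channel labelled vector and 9.89, 9.82, 10.35 and 10.42 in the channel labelled RapCA. Replicate 2 was the lowest in both channels, and the lowest vector value exceeded the highest RapCA value by 1.78. The absolute ratio stood at the 99.5th percentile of all tested probes, against the 95.8th for Angpt2, the 96.3rd for the brighter Nrp1 probe, the 94.1st for the brighter Flt1 probe and the 78.1st for Kdr. Tek is given no rank, because its ratio moved with the handling of background. The fall of Angptl4 was called under all 16 alternatives, at -3.03 to -2.61.

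**Figure D4:**
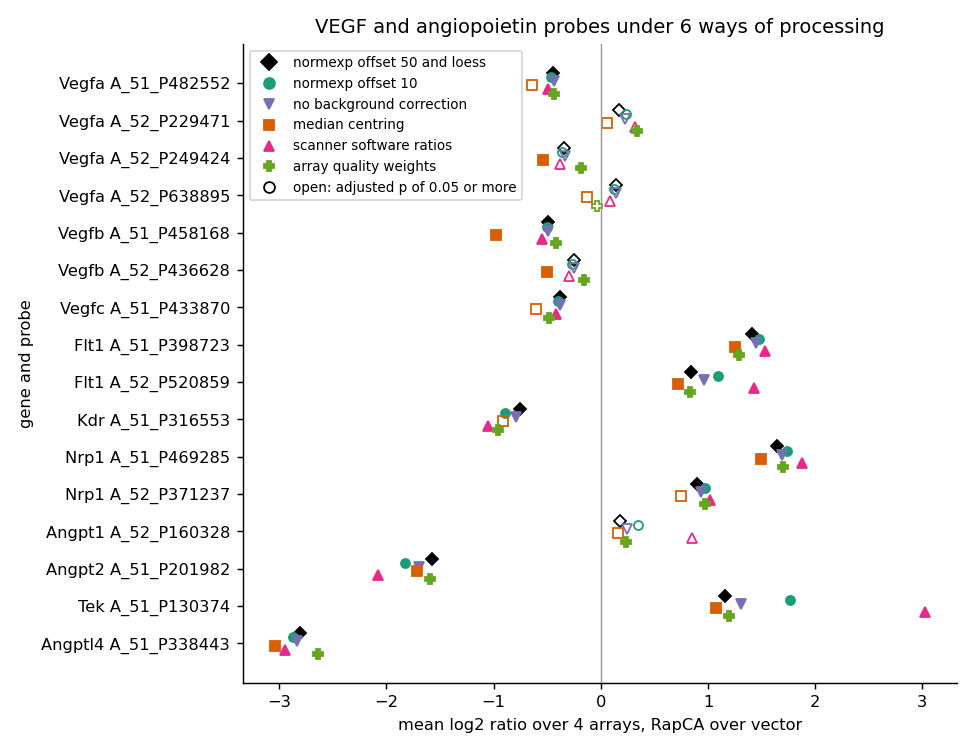
Mean log2 ratio over 4 arrays of the 16 tested probes (rows) under 6 ways of processing (symbols). Open symbols have an adjusted p of 0.05 or more. Angptl4, Angpt2, Flt1 and Tek keep filled symbols on 1 side of 0 throughout, Tek reaches 3.02 under the scanner software's own values, and the Vegfa probe A_52_P638895 crosses 0.

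The endothelial markers were looked at beside the receptors, since Kdr, Flt1 and Tek are best known from that cell type. Of 14 endothelial markers on the array, 7 were above background on no array in either channel, among them Cdh5, Pecam1, Tie1 and Erg, which define the lineage. In the vector channel 5 of the 14 were above background on all arrays, and in the RapCA channel 6 were. Vwf, a clotting factor carrier, fell by 2.03 on the log2 scale (limma adjusted p = 2.66e-05). Its level in the RapCA channel, 6.49, was near background. Over the alternatives its ratio ran from -3.67 to -1.97, so the size of the fall is not settled. Egfl7, a secreted endothelial protein, went the other way at 0.57 (limma adjusted p = 0.0380), a call lost under 8 alternatives. The summed level of the endothelial list was 4489 to 6755 in the channel labelled vector and 5318 to 6596 in the channel labelled RapCA, in intensity units, a sum weighted towards its brightest probes, Cd34 and Egfl7. Of the 12 markers of the labelled cell type, 9 were above background on all arrays in each channel. The smooth muscle list summed to 198315 to 261201 in vector and 467166 to 495869 in RapCA, although Myocd, Des and Synpo2 were not above background on any array. Of its 9 tested genes 6 were called higher, and Cnn1 (0.07), Smtn (0.08) and Myh11 (0.13) were not called. The contractile actin Acta2 had a ratio of 0.54, which turned to -0.24 with median centring. The pericyte list summed to 10117 to 14224 in vector and 31379 to 36894 in RapCA, with Rgs5, Abcc9, Vtn, Cox4i2 and Higd1b above background on no array. Of its 6 tested genes 5 were called higher, while Kcnj8 was lower (-0.40, limma adjusted p = 0.0116). The fibroblast list summed to 263644 to 316243 in vector and 629367 to 782365 in RapCA, and Lum was above background on no array. Of its 8 tested genes 6 were called higher, and Pdgfra (0.17) and Thy1 (0.06) were not called. Over all genes 28.9% were called higher. These sums are likewise weighted towards their brightest probes, so they do not describe every gene of a list. Of 7 macrophage markers 5 were above background on no array. The part of these cell type markers in the receptor and angiopoietin values was not tested.

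Other ligands were listed together with the vascular peptides Apln and Adm, which belong to neither family. The list included large rises and 1 large fall, that of Apln. Of 12 listed, 8 were tested, 6 were called higher, Apln was lower and Pgf was not called, with a median ratio of 0.44 against 0.02 over all genes, of which 28.9% were called higher and 24.9% lower. Vegfd, the ligand closest in kind to Vegfc, rose with ratios of 2.16, 1.21, 1.37 and 1.80 (1.64 ± 0.43, SD, n = 4; limma adjusted p = 0.000292), and Angpt4, a further Tek ligand, rose by 1.67 ± 0.33 (limma adjusted p = 0.000139) and by 3.08 with the scanner software's own ratios. Adm, the vasodilator adrenomedullin, had a ratio of 1.19 ± 0.16 (limma adjusted p = 0.000166). Apln, the ligand of the apelin receptor, had ratios of -3.32, -3.13, -3.49 and -3.14 (-3.27 ± 0.17; limma adjusted p = 7.43e-06), a fall beyond that of Angptl4, while the probes for its receptor Aplnr were too dim to test. Angptl2 (0.41) and Angptl6 (0.48) were called but lost the call under 6 alternatives each. Angptl1 was above background in the RapCA channel only, on all 4 arrays, and was kept for testing through that channel. Its ratio therefore has no settled size, and its call was lost under 4 alternatives. With median centring 3 genes of the list were called higher.

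Among 10 other receptors and coreceptors 7 were tested, of which 3 were higher and 2 lower (71.4% called, against 53.9% of all genes), with a median of 0.36. The integrin chains Itgav, Itgb5 and Itgb3, which pair into receptors that work beside Kdr at the matrix, rose by 1.35 ± 0.31, 1.21 ± 0.19 and 1.12 ± 0.28 (SD, n = 4; limma adjusted p = 0.00029, 0.000191 and 0.000487). These values are from the brightest probe of each gene. The other Itgav probe, at 0.31, was not called (limma adjusted p = 0.0895). The call of Itgb3 was lost with median centring (adjusted p = 0.0608, the highest of its alternatives). The glypican Gpc1 and the second neuropilin, Nrp2, were both lower at -0.70. Nrp2 differed from Nrp1 in sign, and its ratios of 0.15, -1.01, -1.05 and -0.88 put replicate 1 apart from the rest, as for Kdr and Vegfc. Its call was lost under 5 alternatives. Ephb4 (0.36) and Ptprb (0.20) were not called, and Flt4, the receptor of Vegfc, and Tie1, the partner of Tek, were too dim to test.

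Of 21 tested genes that carry the VEGF signal inside the cell, 4 were higher, 3 lower and 14 not called, with a median of 0.23. The share called was 33.3%, against 53.9% of all genes. Rcan1, a calcineurin inhibitor and a classical VEGF-induced gene, fell to -1.67 ± 0.11 (SD, n = 4; limma adjusted p = 4.13e-05). The docking protein Gab1 (1.04 ± 0.23) and the phospholipase Plcg1 (0.66 ± 0.12), which binds activated Kdr, rose, and both calls were lost with median centring alone (adjusted p = 0.0552 and 0.0556). The count of higher genes in this list ran from 1 with median centring to 12 with array quality weights.

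Secreted inhibitors of angiogenesis and matrix binders of VEGF showed the most rises of the 7 lists: 14 of 18 tested were called higher, 9 of them at 2-fold or more, and the other 4 were not called. Over all genes 28.9% were called higher. The median was 0.97. The semaphorin Sema3b, a ligand of neuropilins, rose by 3.45 ± 0.57 (SD, n = 4; limma adjusted p = 4.25e-05). The perlecan gene Hspg2, whose product holds VEGF in the matrix, rose by 2.62 ± 0.28, and Timp3, a protease inhibitor that also blocks VEGF at Kdr, by 2.49 ± 0.35 (limma adjusted p = 2.42e-05 and 4.01e-05). The matrix protein Ccn2 and the thrombospondin Thbs2 rose by 1.66 ± 0.14 and 1.51 ± 0.19 (limma adjusted p = 4.62e-05 and 7.93e-05). With median centring 9 genes of this list were called higher, and with array quality weights 15 were called higher and 3 lower.

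Of 15 regulators of VEGF transcription 5 were higher, 3 lower and 7 not called, with a median of 0.22. The share called, 53.3%, was near the 53.9% of all genes. Stat3 (1.30 ± 0.053) and Arnt, the partner of the HIF alpha subunits (0.98 ± 0.24), rose, and Egln3, an oxygen-sensing hydroxylase that marks HIF for breakdown, fell by 0.72 on the log2 scale (SD, n = 4; limma adjusted p = 7.57e-05, 0.000631 and 0.00143). For Arnt this was the brightest probe, and its call was lost with median centring alone (adjusted p = 0.0889). The other Arnt probe, at 0.23, was not called (limma adjusted p = 0.0801). Genes known as targets of HIF, as Vegfa and Angptl4 are, gave 5 higher, 6 lower and 8 not called of 19, with a median of 0.02. Their share of 57.9% called was also near that of all genes, and over the alternatives 2 to 7 were higher and 4 to 8 lower. Ldha (-1.23) and Hk2 (-1.08), enzymes of glycolysis, fell, while the collagen hydroxylase P4ha1 and the stress gene Ndrg1 rose by 1.28 each. Angptl4 is also known as a PPAR target. A list of PPAR and lipid genes took in the receptors Pparg, Ppara and Ppard themselves beside their targets and other lipid genes. Of its 13 tested genes, 2 were higher, 4 lower and 7 not called (46.2% called), with a median of 0.01. Pparg, the nuclear receptor of fat cells, and its target Fabp4 fell by 1.78 and 1.44 on the log2 scale (limma adjusted p = 3.46e-05 and 6.3e-05), and Acadvl, an enzyme of fatty acid oxidation, rose by 1.09 (limma adjusted p = 0.000336).

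**Figure D5:**
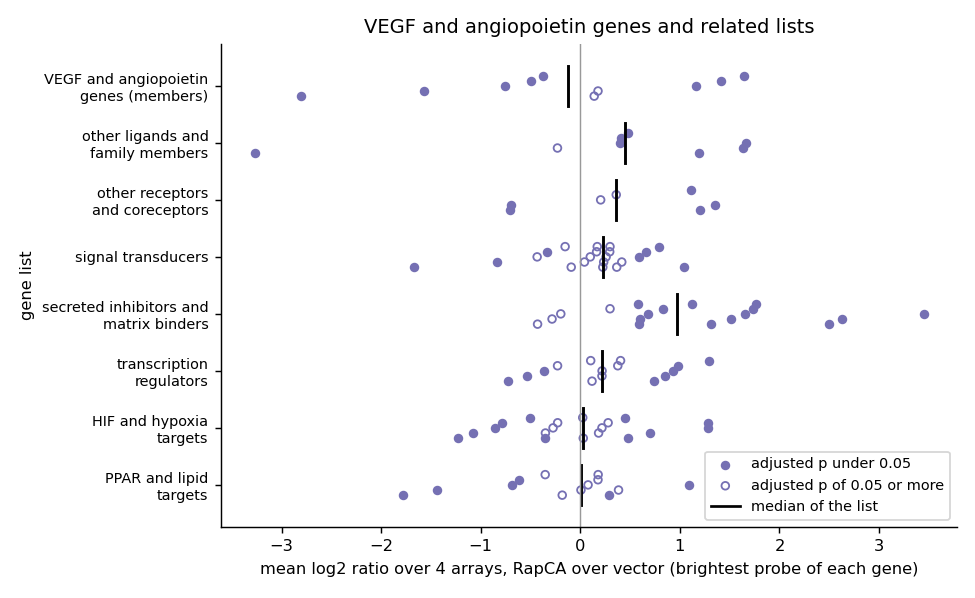
Mean log2 ratio over 4 arrays of the brightest probe of each tested gene, for the 10 VEGF and angiopoietin genes and 7 related lists (rows). Filled points have an adjusted p under 0.05, and black bars mark list medians. The inhibitors and matrix binders lie mostly to the right with a median of 0.97, and Angptl4 and Apln are the lowest points.

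The genes whose ratios were closest to those of a member, by the root mean square difference over the 4 arrays, were found among the brightest probes of all tested genes. Sgk2 (0.047) and Aurka (0.060) lay closest to Angpt2, and Rnft2 (0.022) and Slc49a4 (0.029) to Tek. Helb (0.050) and Noxred1 (0.068) lay closest to Kdr, Pcyt1a (0.089) and Col4a1 (0.11) to Flt1, and Ccpg1 (0.10) and Cpd (0.11) to Nrp1. Drc1 (0.026) and Dtnbp1 (0.030) were next to Vegfb, and Trim39 (0.032) lay near Vegfc. Angptl4 had the fewest neighbours, with H2-Q8 (0.10) and Psmb9 (0.15) the closest and 3 genes within 0.25. By contrast 25 genes lay that close to Nrp1, 65 to Angpt2, 86 to Flt1, 263 to Kdr, 380 to Tek, 824 to Vegfb and 972 to Vegfc. The measure takes in the mean ratio as well as its pattern over the 4 arrays.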

How the data were processed

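Each of the 4 two-colour Agilent arrays carried RNA of both conditions. The scanner files hold the deposited spot intensities and log10 ratios; the authors made them with Agilent Feature Extraction (10.7.3.1 in the deposited headers, 10.9 in the submitters' processing notes), on an array design of the mm9 build. The series table the authors deposited holds log10 ratios that matched the scanner software's to within 5e-05 for the 40929 probes printed once, with a median of 0 in each column. Median spot and background intensities were background-corrected here with normexp (offset 50) and loess-scaled within each array, with control spots at weight 0. Outlier spots (94 to 137 per array) were left out, no spot was saturated, and the spots of a probe were averaged over 43379 spots. Probes were kept if Cy3, Cy5 or both were well above background on every array (23497 of 41174). Ratios were turned to Cy3 over Cy5 as log2 and tested against 0 with limma 3.58.1 (R 4.3.3; statmod 1.5.0 and the data.table package, version 1.17.8) with Benjamini-Hochberg adjustment over all kept probes and at least 3 arrays with a value. Levels came from loess followed by Aquantile scaling. The number of arrays limits the precision.

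RefSeq accessions gave a symbol to 64.8% of probes; promoters matched 7 of the 10 genes, in 8 stretches, while Angpt1, Angpt2 and Angptl4 had no entry. Promoter coordinates are those of GRCm38.p6, and probe coordinates were not used. In simulated data of 20843 probes with a dye trend, 14%, 76%, 100% and 100% of probes changed by log2 0.5, 1, 2 and 4 were recovered, with 5 false calls. Only 50 probes were changed at each size, and all arrays had the same noise. In the real data 49.6% of tested probes were called and replicate 1 differed from the rest. The simulation checks that the steps run as meant, and its rates cannot be carried over to these data.

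Named genes were all members, the targeted gene, up to 5 called genes per list with the smallest p or over 2-fold change, and the 2 nearest genes of each called member, of which 1 is not reported here; Angptl1, Angptl2, Angptl6, Nrp2, Gpc1, Pgf, Ephb4, Ptprb and the cell markers were named after their values were seen. The members, lists and motifs were chosen with earlier results of these data known. Alternatives covered background correction, scaling, the dim-probe filter, outlier spots, the prior variance, array weights, probe averaging and each array left out; medians of spots and loess fitted on bright spots were chosen after seeing the data. Figures used Python 3.11.15, pandas 2.3.3 and matplotlib 3.10.9.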

Additional observations from a re-analysis of the deposited data

Results flagged for a closer look

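In 7 of 55 probes examined, 1 of the 4 arrays lay apart from the other 3 by more than the critical value of Dixon's test, which chance alone exceeds in about 1 in 20 groups. Nrp1 had such an array on both probes, and it was replicate 4 each time: a log2 ratio of 1.30 against 1.73 to 1.81 on A_51_P469285, and 0.61 against 0.97 to 1.01 on A_52_P371237. Replicate 4 also stood apart for the Angpt1 probe A_52_P160328, at -0.14 against 0.25 to 0.32. The other Angpt1 probe, which was too dim to test, had 0.28 on replicate 3 against -0.01 to 0.02. Flt1 probe A_52_P520859 had 0.70 on replicate 2 against 0.89 to 0.90, a small distance that counts because the other arrays lay so close together. Replicate 1 stood apart for Nrp2, at 0.15 against -1.05 to -0.88, and for Angptl2, at 0.015 against 0.53 to 0.56.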

How the results depend on the processing

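Over 254 alternative values for the 16 tested probes, 235 kept their direction and their side of the threshold, 10 lost a call, 7 gained one and 2 changed sign. These values are not independent checks. For those of the probes printed once, the filter, outlier, prior variance and median-of-spots settings left the mean ratio unchanged. The deposited series table gave nearly the same ratios as the scanner software. Median centring called 6546 probes, 2624 of them higher, against 11656 and 6210. It turned the Vegfa probe A_52_P638895 to -0.13 and the brightest Acta2 probe to -0.24. Array quality weights, which weighted replicate 3 by 4.62 and replicate 1 by 0.14, called 17946 probes, 8756 of them lower against 5446, and turned the same Vegfa probe to -0.036. Leaving out 1 array at a time gave 7907 to 15738 probes called over the whole array, 4371 to 8074 higher and 3523 to 7664 lower, with 3 to 6 of the VEGF and angiopoietin probes lower, 5 to 6 higher and 8 to 12 in all. The highest of these counts came without replicate 1, the count of 3 without replicate 2, and the low counts without replicate 2 or 3. The cause was not tested, beyond fewer arrays leaving less to estimate the spread. Tek and Angpt1 had no value where both channels had to be above background. The test was paired by array only, because each ratio sets the 2 channels of an array against each other. The labels do not say whether the RNAs on an array came from matched cultures. With 1 group of arrays no further pairing was possible. Signal over background limits Tek in the vector channel and Angpt1 in both.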
